A study of Mus musculus with 23 samples.

Results

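The cytochrome P450 family 4 (CYP4) genes described here are 10 mouse genes that encode fatty acid hydroxylases or close relatives, 6 of the Cyp4a subfamily (Cyp4a10, Cyp4a12a, Cyp4a12b, Cyp4a14, Cyp4a31 and Cyp4a32), 3 of the Cyp4f subfamily (Cyp4f13, Cyp4f14 and Cyp4f15) and Cyp4v3. They were chosen by gene name, and a probe was counted as theirs when the array file gave it exactly that name. Under that rule 9 of the 10 genes, among 21056 genes with a retained probe, were measured by 13 probes, all of which were retained. No probe carried the name Cyp4a32. The arrays held liver RNA of 23 male mice on a C57BL/6J background, 1 array per mouse. They formed 4 groups, namely wild-type vehicle (WT CONT, n = 6), wild-type PCN (WT PCN, n = 5), Pxr-/- vehicle (Pxr-/- CONT, n = 6) and Pxr-/- PCN (Pxr-/- PCN, n = 6). PCN, pregnenolone 16α-carbonitrile, is a ligand of mouse PXR, the xenobiotic receptor encoded by Nr1i2. PCN mice had 4 daily doses of 100 mg/kg, injected into the peritoneum with corn oil as the vehicle, and CONT mice had the oil. Livers were taken at ZT6, which was 6 h past the final dose. The sample labels call the mice fed, while the study's text calls mice at this hour semi-fasted. Treatment followed 2 weeks of acclimatization. WT mice were bought at 6 weeks of age whereas Pxr-/- mice, which lack the receptor in every tissue, came from a colony kept in the facility, so that genotype and colony cannot be told apart.

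CYP4 enzymes are microsomal monooxygenases that add a hydroxyl group at or next to the methyl end of a fatty acid, the omega end. The omega-alcohol is then oxidised to an aldehyde and to a dicarboxylic acid, which is shortened in peroxisomes. Cyp4a10, Cyp4a14 and Cyp4a31 are known as genes induced in mouse liver by ligands of the fatty acid receptor PPARα, Cyp4a12a is known as a male-predominant arachidonic acid hydroxylase, Cyp4f enzymes act on leukotrienes and long-chain fatty acids, and Cyp4v3 is the mouse counterpart of a human fatty acid hydroxylase gene linked to a retinal dystrophy.

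The Cyp4a probes lay within 1 cluster on chromosome 4 of build mm9, in the order Cyp4a12a (115005258 to 115005317), Cyp4a12b (115111580 to 115111639), Cyp4a14 (115168609 to 115168668), Cyp4a10 (3 probes, from 115197445 to 115205756) and Cyp4a31 (2 probes, from 115242872 to 115251612). The Cyp4f probes were on chromosome 17, with Cyp4f15 at 32840088 to 32840147, Cyp4f14 at 33042214 to 33042273 and the main Cyp4f13 probe at 33062503 to 33062650. Cyp4v3 was on chromosome 8 at 46391395 to 46391454. Of the 13 probes, 2 for Cyp4a10 and 1 for Cyp4f13 spanned 482, 489 and 148 genomic bases although the probe has 60, so each joins more than 1 exon. The RefSeq table (GRCm38.p6, used for names and gene order alone) places Cyp4a32 between Cyp4a31 and Cyp4b1.

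Neighbouring Cyp4a genes are near copies of each other, and the genes listed for each probe limit how far the array can separate them. The accessions listed in the array file name both Cyp4a10 and Cyp4a32 for each of the 3 Cyp4a10 probes, both Cyp4a12a and Cyp4a12b for the Cyp4a12a probe, and both Cyp4a31 and Cyp4a10 for the dimmer Cyp4a31 probe. The brighter Cyp4a31 probe, the Cyp4a12b probe and the Cyp4a14 probe listed 1 gene each. The signal named Cyp4a10 can therefore contain Cyp4a32 transcript, and the named members of a pair are not fully separate measurements. A pair of these probes, shown here because they carry that limit, overlap by 26 bases at homologous positions. Capitals mark the 4 bases at which they differ.
Cyp4a10, dimmest probe: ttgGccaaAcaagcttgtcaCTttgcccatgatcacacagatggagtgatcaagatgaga
Cyp4a31, dimmer probe: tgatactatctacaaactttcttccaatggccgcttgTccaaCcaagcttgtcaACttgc
Counted from 1 at the 5′ end of the Cyp4a10 probe, the differences are G4T, A9C, C21A and T22C, which leaves 84.6% identity over the overlap. The second-brightest Cyp4a10 probe, on which a call in Pxr-/- mice depends, and the Cyp4a14 probe, which lies near the start of its transcript (from position 78), show no such capitals because no other member probe came close. Probes were compared with each other and not with transcripts, so a lack of capitals says nothing about specificity.
Cyp4a10, second-brightest probe: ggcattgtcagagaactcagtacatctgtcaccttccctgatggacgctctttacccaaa
Cyp4a14: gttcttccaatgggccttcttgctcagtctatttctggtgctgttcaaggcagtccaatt

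Values are log2 median signals after quantile normalization. They follow RNA from whole liver, so that fewer cells of a type and less RNA per cell cannot be told apart, and levels of different probes were not compared. A gene was read from its retained probe with the highest mean signal. A change was called when the limma test, adjusted by the Benjamini-Hochberg procedure over all 32087 probes, gave an adjusted p no higher than 0.05 and the fold exceeded 1.5. Each array had 29510 to 33321 probes well above background, and no member probe was saturated. The probe for Nr1i2 did not separate the genotypes (Pxr-/- CONT against WT CONT -0.03, adjusted p = 0.977), and genotypes are those of the labels. Cyp3a11, a PXR target, rose 11.7-fold after PCN in WT mice (log2 change 3.55, adjusted p = 4.12e-10) and by 0.31 in Pxr-/- mice (adjusted p = 0.431), and the difference was called (3.24, adjusted p = 1.23e-06).

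PCN lowered 4 of the 9 measured genes in WT mice and raised 0. Cyp4a31, Cyp4a10, Cyp4a14 and Cyp4v3 fell, and Cyp4a12a, Cyp4a12b, Cyp4f13, Cyp4f14 and Cyp4f15 did not pass the test. Over all 21056 genes, 2.39% were called lower and 3.79% higher. By subfamily, 3 of 5 Cyp4a genes and 1 of 4 Cyp4f and Cyp4v genes were called lower, with median log2 changes of -1.03 and 0.04 beside -0.02 for all genes. The Cyp4a14 probe passed the detection filter through WT CONT alone, the group in which it was high, while the other 12 probes passed in all 4 groups. With Cyp4a14 set aside, a choice made after its values were seen, 3 of 8 members and 2 of 4 Cyp4a genes were called lower, with a Cyp4a median of -0.998. No test was made between the subfamilies. In Pxr-/- mice 0 of the 9 genes were called in either direction by limma, and 2 (Cyp4a10 and Cyp4a31) had an unadjusted p below 0.05, both lower. The shares called over all genes were 0.86% lower and 1.42% higher there. The share of all genes with an unadjusted p below 0.05 was not counted.

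**Figure D1:**
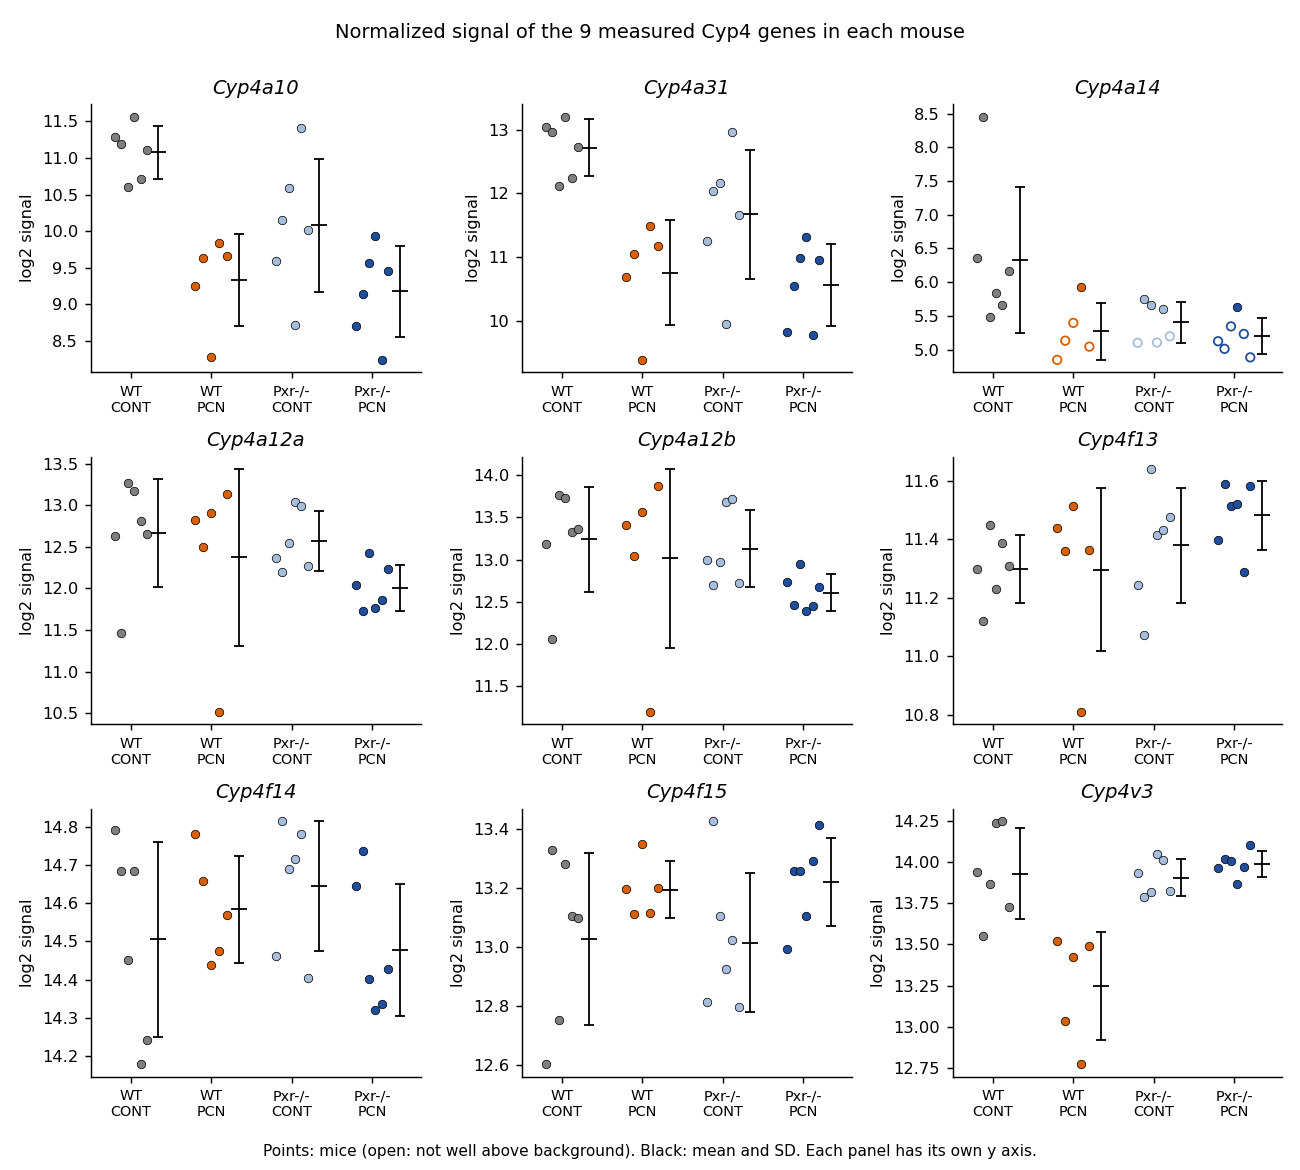
Normalized log2 signal (y axis, a scale of its own in each panel) of the 9 measured genes in each mouse of the 4 groups (x axis), with mean and SD in black and open points for arrays on which the probe was not well above background. WT PCN mice lie below all WT CONT mice in the panels of Cyp4a10, Cyp4a31 and, narrowly, Cyp4v3. The share of all genes with such a gap was not counted. For Cyp4a12a and Cyp4a12b 1 WT PCN mouse lies far below its group.

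Cyp4a10 encodes a lauric acid omega-hydroxylase whose transcript is a standard readout of PPARα activity in mouse liver. In WT CONT mice its log2 signal ran from 10.61 to 11.56 with a median of 11.15. The 5 WT PCN mice gave 9.25, 9.64, 8.28, 9.83 and 9.66. The WT groups did not overlap, and WT PCN replicate 3 was the lowest. Here and for the genes below, the share of all genes whose WT groups do not overlap was not counted. In Pxr-/- CONT mice the range was 8.71 to 11.41 (median 10.08), 2.70 wide against 0.96 in WT CONT, and in Pxr-/- PCN mice it was 8.24 to 9.93 (median 9.30). The Pxr-/- groups overlapped. The mean was 11.08 ± 0.36 (SD, n = 6) in WT CONT and 9.33 ± 0.63 (n = 5) after PCN. Pxr-/- CONT mice averaged 10.08 ± 0.91 (n = 6) and those given PCN 9.18 ± 0.62 (n = 6). The level was thus highest in WT CONT and lowest in Pxr-/- PCN, with WT PCN and Pxr-/- PCN closer than their SDs. PCN decreased Cyp4a10 3.24-fold in WT mice (log2 change -1.70, SE 0.35, adjusted p = 0.00129). The change of -0.90 in Pxr-/- mice (SE 0.33, adjusted p = 0.103) did not pass the test. The difference between the genotypes was -0.79 with a 95% interval of -1.79 to 0.20 (adjusted p = 0.474), so that an equal effect and a much larger WT effect both lie within it. Without WT PCN replicate 3 it was -0.41.

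The other Cyp4a10 probes gave the same order of groups in WT mice. The second-brightest one fell by 1.56 and the dimmest by 1.27 on the log2 scale, and both were called (adjusted p = 0.000206 and 0.00167). After PCN in Pxr-/- mice the second-brightest probe was called, at -0.84 (adjusted p = 0.0447), and the dimmest was not, at -0.51 (adjusted p = 0.246). The call in Pxr-/- mice thus depended on the probe. It depended on 1 array as well, since without Pxr-/- CONT replicate 4, the lowest of its group at 8.71, the brightest probe was called lower at -1.14 (adjusted p = 0.0305).

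Cyp4a31, a close homologue of Cyp4a10, had the largest fall among the members. Its log2 signal was 12.12 to 13.21 in WT CONT (median 12.85). In the 5 WT PCN mice it was 10.69, 11.05, 9.38, 11.49 and 11.17, without overlap. It was 9.95 to 12.96 in Pxr-/- CONT (median 11.85) and 9.77 to 11.32 in Pxr-/- PCN (median 10.75). As for Cyp4a10, the Pxr-/- CONT mice covered the widest range, 3.01, and spanned almost the whole distance between the WT groups. The decrease in WT mice was 3.77-fold (log2 change -1.91, SE 0.41, adjusted p = 0.00183). The dimmer Cyp4a31 probe fell by 1.21 in WT mice (adjusted p = 0.00183). The changes of the brighter and the dimmer probe in Pxr-/- mice were -1.11 (adjusted p = 0.0902) and -0.73 (adjusted p = 0.0758), neither of them called. Without Pxr-/- CONT replicate 4 the former was -1.42 and called (adjusted p = 0.0191), and without WT PCN replicate 3 it was -1.11 and called (adjusted p = 0.039). The difference between genotypes was -0.81 (95% interval -1.98 to 0.36, adjusted p = 0.556), and it was -0.34 without WT PCN replicate 3 and -0.51 without Pxr-/- CONT replicate 4. Within washing batch 1 alone the WT change was -1.35 and was not called (adjusted p = 0.0934).

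Cyp4a14, a PPARα-induced fatty acid hydroxylase that is low in unstimulated male liver, was close to the detection limit. The probe exceeded background clearly on 6 of 6 WT CONT, 1 of 5 WT PCN, 3 of 6 Pxr-/- CONT and 1 of 6 Pxr-/- PCN arrays. In WT CONT mice the log2 signal ran from 5.49 to 8.46 with a median of 6.01. The 5 WT PCN mice gave 4.85, 5.13, 5.40, 5.93 and 5.04, which overlap the lower WT CONT mice. The Pxr-/- groups lay at 5.10 to 5.75 (median 5.40) without and 4.88 to 5.63 (median 5.18) with PCN. The measured signals differed 2.04-fold between the WT groups (log2 change -1.03, SE 0.34, adjusted p = 0.0343), a call that was lost with no filter (adjusted p = 0.0639). The signals of arrays below background, 4 of the 5 in WT PCN, are bounds rather than levels, and the probe was tested because WT CONT was above background. Without WT CONT replicate 2, the mouse at 8.46, the change was -0.63 (adjusted p = 0.0275). The call was lost without WT CONT replicate 1 or any of WT PCN replicates 1, 2, 3 and 5 (adjusted p 0.0637 to 0.0882). The change without the receptor was -0.20 (adjusted p = 0.787), and the WT effect minus that effect was -0.83 (95% interval -1.82 to 0.16, adjusted p = 0.447), or -0.43 without WT CONT replicate 2.

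Cyp4a12a and Cyp4a12b encode nearly identical hydroxylases that make 20-HETE from arachidonic acid. Their probes were bright, and neither passed the test in any comparison. Cyp4a12a ran from 11.47 to 13.26 in WT CONT (median 12.74), and the 5 WT PCN mice gave 12.82, 12.50, 12.90, 10.51 and 13.13. All WT PCN mice but replicate 4 lay within the WT CONT range. Pxr-/- CONT mice gave 12.20 to 13.03 (median 12.46) and Pxr-/- PCN mice 11.73 to 12.43 (median 11.95). The change was -0.30 in WT mice (95% interval -1.05 to 0.45, adjusted p = 0.602) and -0.56 in Pxr-/- mice (-1.27 to 0.15, adjusted p = 0.366). Its sign in WT mice turned without WT PCN replicate 4, to 0.17. Cyp4a12b repeated this pattern, with changes of -0.23 (adjusted p = 0.7) and -0.52 (adjusted p = 0.406), and with 11.19 in WT PCN replicate 4 against 13.04 to 13.87 in the rest of its group. Intervals of this width leave room for a decrease of about the size seen for Cyp4a14.

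**Figure D2:**
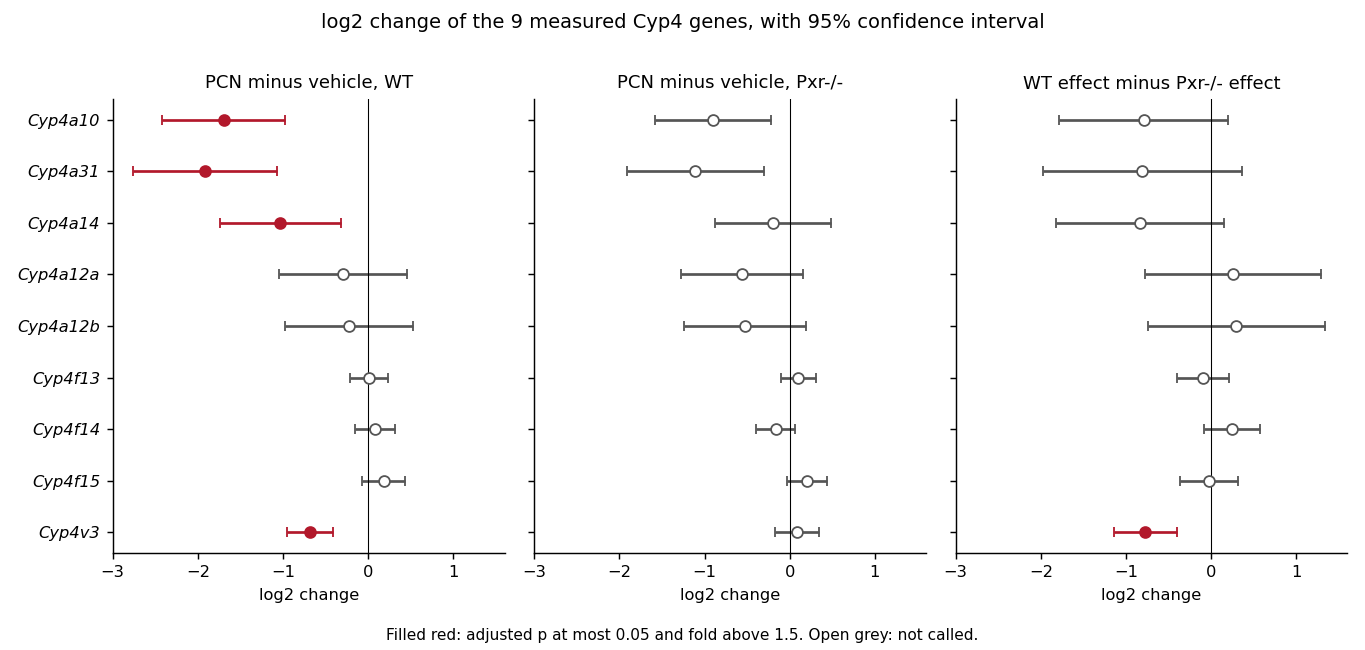
log2 change (x axis) of each measured gene (y axis) after PCN in WT mice, after PCN in Pxr-/- mice and as the difference between these effects, with 95% confidence intervals, filled red where called. In WT mice 4 genes were called lower, in Pxr-/- mice 0, and the difference was called for Cyp4v3 alone.

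Cyp4v3 stood apart from the Cyp4f genes. Its log2 signal was 13.55 to 14.25 in WT CONT (median 13.91), and the 5 WT PCN mice gave 13.52, 13.04, 13.42, 12.77 and 13.49. These groups did not overlap, although WT PCN replicate 1 and WT CONT replicate 2 were nearly level. Pxr-/- CONT mice were at 13.79 to 14.05 (median 13.88) and Pxr-/- PCN mice at 13.87 to 14.11 (median 13.99), so that WT PCN mice were below every mouse of the other groups. PCN decreased Cyp4v3 1.61-fold in WT mice (log2 change -0.69, SE 0.13, adjusted p = 0.000634) and the change in Pxr-/- mice was 0.08 (SE 0.12, adjusted p = 0.752). The difference between the genotypes was -0.77 (95% interval -1.14 to -0.40, adjusted p = 0.0274). This was the call in 1 of the 9 members for that comparison, where 0.242% of all genes were called lower and 0.807% higher. It lay near the threshold, being lost without WT CONT replicate 5, WT PCN replicate 2 or Pxr-/- PCN replicate 6 (adjusted p 0.0527 to 0.0745) and with other scalings. The WT fold fell under 1.5 without WT PCN replicate 4 (-0.56, adjusted p = 0.00174).

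None of the 3 Cyp4f genes passed the test in either genotype on its main probe. Cyp4f14, which inactivates leukotriene B4, had log2 signals of 14.18 to 14.79 in WT CONT and of 14.78, 14.66, 14.44, 14.47 and 14.57 in WT PCN, and its changes were 0.08 in WT mice (95% interval -0.16 to 0.32, adjusted p = 0.674) and -0.17 in Pxr-/- mice (-0.39 to 0.06, adjusted p = 0.409). Cyp4f15 changed by 0.18 (-0.07 to 0.43, adjusted p = 0.31) and 0.20 (-0.03 to 0.44, adjusted p = 0.316), and Cyp4f13 by 0.01 (-0.21 to 0.23, adjusted p = 0.964) and 0.10 (-0.10 to 0.31, adjusted p = 0.604). A change of 1.5-fold lies outside each of these 6 intervals, which are those of the main probes. A second, dimmer Cyp4f13 probe, whose listed accessions held no RefSeq transcript, gave -0.40 in WT mice (95% interval -0.67 to -0.14, adjusted p = 0.026), a fold of 1.32. It thus went against the main probe, and its interval reaches past 1.5-fold. WT PCN replicate 4 was again the lowest of its group for the main Cyp4f13 probe, at 10.81 against 11.36 to 11.51.

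Without PCN, 0 of the 9 members differed between Pxr-/- CONT and WT CONT by the limma test, and 3 (Cyp4a10, Cyp4a14 and Cyp4a31) had an unadjusted p below 0.05, all lower in Pxr-/- CONT. Over all genes 0.228% were called higher and 0.0807% lower. The share of all genes with an unadjusted p below 0.05 was not counted. The estimates were -0.997 for Cyp4a10 (95% interval -1.68 to -0.31, adjusted p = 0.24), -0.93 for Cyp4a14 (-1.61 to -0.25, adjusted p = 0.276) and -1.04 for Cyp4a31 (-1.85 to -0.24, adjusted p = 0.306). For Cyp4a14, above background on 3 of 6 Pxr-/- CONT arrays, the estimate was -0.51 without WT CONT replicate 2. Its probe passed the detection filter through WT CONT alone, which favours a lower estimate in this comparison. The estimates of the other 6 members lay between -0.11 and 0.14. The 3 genes with these low estimates are the same Cyp4a genes that fell after PCN in WT mice, and both comparisons use the WT CONT arrays.

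**Figure D3:**
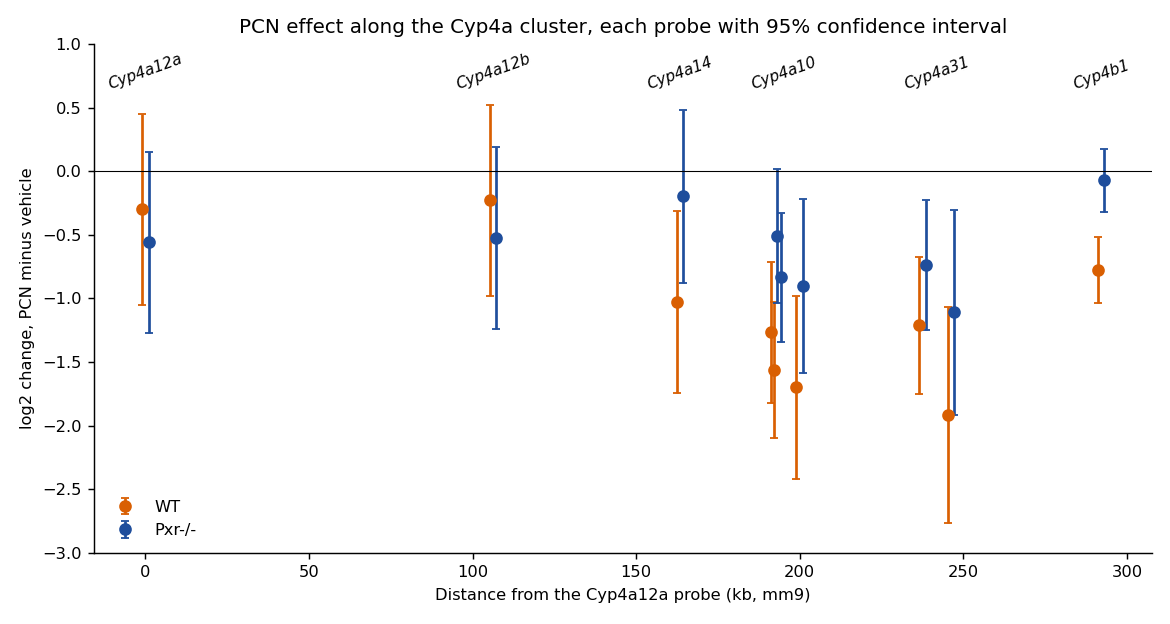
log2 change after PCN (y axis) of each probe of the Cyp4a genes and of Cyp4b1 against its distance in kb from the Cyp4a12a probe (x axis), in WT (orange) and Pxr-/- mice (blue), with 95% confidence intervals. Cyp4a12a and Cyp4a12b lie nearest 0 in WT mice, while the probes from 163.4 to 246.3 kb lie between -1.03 and -1.91.

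In WT mice the estimates differed along the cluster, as the plot of change by distance shows. No test of position was made. The 2 Cyp4a12 probes, 106.3 kb apart at 1 end, changed by -0.30 and -0.23, and the 6 probes of Cyp4a14, Cyp4a10 and Cyp4a31, which follow at 163.4 to 246.3 kb, by -1.03 to -1.91. Cyp4b1, a lung-type monooxygenase at 292.1 kb, changed by -0.77. The order was not the same in Pxr-/- mice. There Cyp4a14 was at -0.20, Cyp4a12a at -0.56 and Cyp4a12b at -0.52, none of them called. Probes of 1 gene share transcripts, so these are not independent points.

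Members also differed in how much mice of the same group varied. The residual SD on the log2 scale was 0.62 for Cyp4a10, 0.65 for Cyp4a12a, 0.65 for Cyp4a12b, 0.62 for Cyp4a14 and 0.74 for Cyp4a31, against 0.18 to 0.22 for the Cyp4f genes and Cyp4v3 and a median of 0.17 over all genes. All 5 Cyp4a genes were thus above the 98th percentile of genes (98.5 to 99.3), and the other 4 between the 52.1 and the 70.7 percentile. Single mice weighed in this. The SD of Cyp4a14 was 1.09 in WT CONT, which held the mouse at 8.46, and 0.27 to 0.42 in the other groups. For Cyp4a12a and Cyp4a12b it was 1.06 in WT PCN, where a mouse lay far below the rest, and 0.28 and 0.21 in Pxr-/- PCN. A smaller change could be called for a Cyp4f gene than for a Cyp4a gene.

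**Figure D4:**
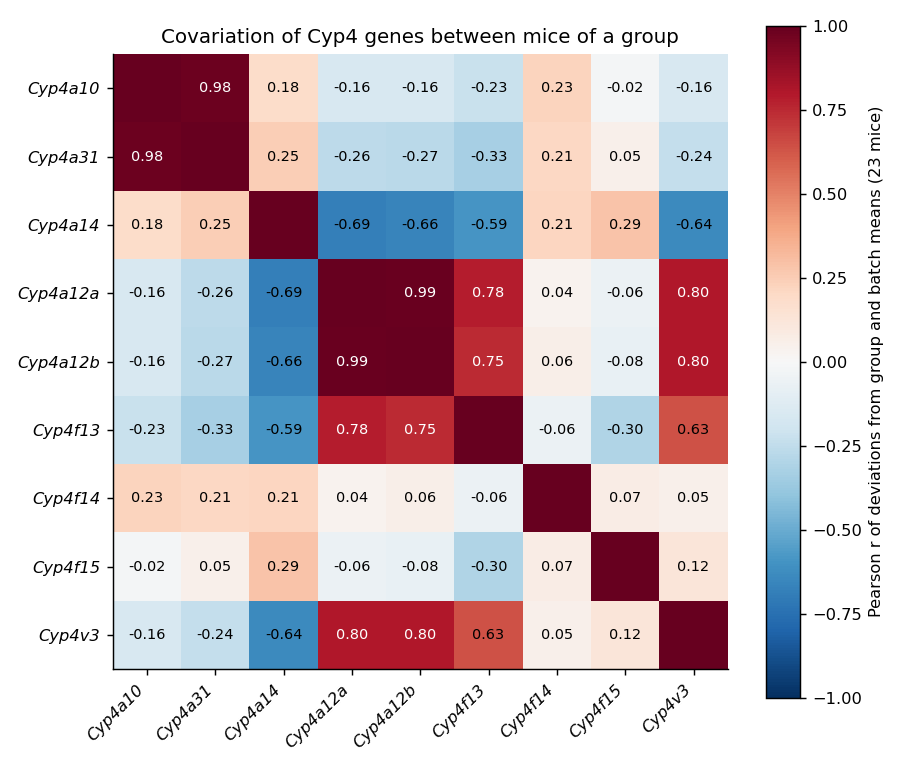
Pearson r between members over the 23 mice, computed on deviations from group and washing batch means, with members on both axes. Cyp4a10 moved with Cyp4a31 (0.98) and Cyp4a12a with Cyp4a12b (0.99). The r of the Cyp4a12 genes with Cyp4a10 was -0.16 for both. Without the 2 mice farthest from the median of Cyp4a10 it was 0.036 and 0.057.

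Between mice of a group the Cyp4a genes did not vary as 1 block. Deviations from group and batch means correlated at r = 0.98 (Spearman rho 0.96, n = 23 mice) for Cyp4a10 with Cyp4a31 and at r = 0.99 (rho 0.95) for Cyp4a12a with Cyp4a12b. Between the Cyp4a12 genes and Cyp4a10, Cyp4a14 or Cyp4a31 the 6 values of r ran from -0.69 to -0.16. The 2 mice farthest from the median of 1 gene of each pair were then left out, Cyp4a10 in its pairs and otherwise the Cyp4a12 gene. Without them the values ran from -0.37 to 0.057, and those with Cyp4a10 turned sign. The mice left out thus differ between pairs. Cyp4a14 had r of 0.18 with Cyp4a10 and 0.25 with Cyp4a31. Cyp4v3 and Cyp4f13 went with Cyp4a12a instead (r = 0.80 and 0.78), but these fell to 0.59 and 0.51 when 2 mice were left out in that way. These correlations are descriptions without a test, and the points share arrays and normalization. The Cyp4a12a and Cyp4a12b probes share a listed gene. The Cyp4a10 and Cyp4a31 probes with r = 0.98 list different genes. Whether either of them also reads the transcript of the other gene was not tested.

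Among 15098 other genes named in RefSeq, those whose deviations were most like Cyp4a10 were Cyp4a31 (r = 0.98), Ttpa (0.75), the hepatic tocopherol transfer protein, and Spg20 (0.70). For Cyp4a12a they were Cyp4a12b (0.99), the major urinary protein gene Mup3 (0.89) and Cyp2d34 (0.88). Those of Cyp4f14 were Mepe (0.84), 2310034O05Rik (0.77) and Cul3 (0.76), and those of Cyp4v3 were Mdga2 (0.90), the efflux transporter Abcg2 (0.86) and the growth hormone receptor Ghr (0.86). Except for Cyp4a31 after PCN in WT mice, none of these 12 was called in any of the 4 comparisons. Without the 2 mice farthest from the median of the member, r was 0.59 for Ttpa and Spg20, 0.63 for Mup3 and 0.72 for Cyp2d34. For the remaining genes it was then 0.77 to 0.97.

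**Figure D5:**
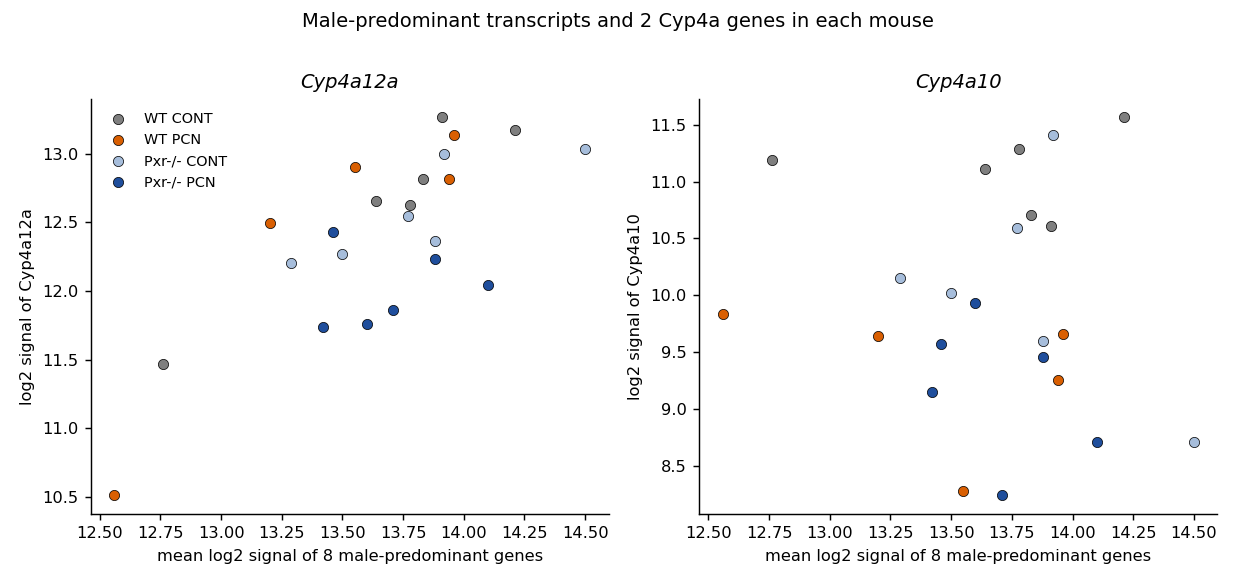
log2 signal of Cyp4a12a (left y axis) and Cyp4a10 (right y axis) against the mean log2 signal of 8 male-predominant genes (x axis) in each mouse, coloured by group. WT PCN replicate 4 and WT CONT replicate 2 have the lowest values on the x axis, 12.56 and 12.76, and the lowest Cyp4a12a values.

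The 2 WT mice lowest in Cyp4a12 transcripts were also lowest in the mean of other male-predominant transcripts. The mean log2 signal over 8 such genes was 12.56 in WT PCN replicate 4, against 13.20 to 13.96 in the rest of its group, and 12.76 in WT CONT replicate 2, against 13.64 to 14.21. Cyp2d9, a male-specific steroid hydroxylase, was at 13.38 and 13.30 in these mice and at 14.63 to 15.14 in the other WT mice. Not every gene of the list was low in them. In WT CONT replicate 2, Mup20 was the highest of its group (18.34) and Elovl3 lay within its group (11.27). Group means followed this pattern for some genes of the list and not for others. Pxr-/- PCN had the lowest mean Cyp4a12a (12.01). It also had the lowest means of Elovl3 (10.78), Ugt2b1 (11.98) and Mup20 (18.01). Its means of Cyp2d9 (15.21), C4a (13.25) and Susd4 (12.39) were the highest of the groups. Deviations of the list mean correlated over 23 mice with those of Cyp4a12a at r = 0.85 (rho 0.80) and of Cyp4v3 at 0.82. For Cyp4a14 and Cyp4a10 r was -0.70 and -0.24. Without the 2 mice farthest from the median of each member, these values were 0.70, 0.70, -0.45 and -0.04 in the same order. Of the list, 1 gene (Hsd3b5, a steroid dehydrogenase, -1.52) was called lower after PCN in WT mice and 0 higher; in Pxr-/- mice C4a rose (0.78) and Ugt2b1 fell (-0.67). Without both mice the same number of members, 4, was called lower in WT mice, with -1.90 for Cyp4a10, -2.15 for Cyp4a31, -0.81 for Cyp4a14 and -0.63 for Cyp4v3. The part of these transcripts in the Cyp4a12 and Cyp4v3 values was not tested further.

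Ppara, which encodes the receptor that drives Cyp4a10, Cyp4a14 and Cyp4a31, also fell after PCN in WT mice. Its log2 signal was 14.43 to 14.72 in WT CONT and 13.50, 13.61, 13.78, 13.36 and 13.43 in WT PCN (in replicate order, as for the members), with no overlap. It was 14.29 to 14.62 in Pxr-/- CONT and 14.04 to 14.50 in Pxr-/- PCN. The decrease in WT mice was 2.07-fold (log2 change -1.05, SE 0.10, adjusted p = 2.17e-07). Pxr-/- mice had a change of -0.18 (adjusted p = 0.265). The genotypes differed in this effect (-0.87, adjusted p = 0.000882). Between Pxr-/- CONT and WT CONT, Ppara differed by -0.11 (adjusted p = 0.709). The estimates there were -0.997 for Cyp4a10, -0.93 for Cyp4a14 and -1.04 for Cyp4a31, none of them called. The part of Ppara in the Cyp4a values was not tested. Of 8 regulators of Cyp4a transcription, 2 were called lower in WT mice, Ppara and its coactivator Ppargc1a (-1.20), and 0 higher. Over all genes, 2.39% were called lower there. Another 2, Rxra (-0.40, adjusted p = 0.000271) and Nr1h4 (-0.35, adjusted p = 0.0129), passed the adjusted p by limma with a fold under 1.5. Without the receptor Ppargc1a fell by 0.96 and the receptor gene Nr1i3 (CAR) rose by 0.97. The difference was called for Nr1i3 (-1.27), Ppara and the bile acid receptor gene Nr1h4 (-0.62).

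Genes that act before and after the hydroxylases changed in part. Por, the reductase that supplies electrons to all microsomal P450 enzymes, rose by 1.04 in WT mice (adjusted p = 9.01e-05). It rose by 0.62 in Pxr-/- mice (adjusted p = 0.0168) and was the only 1 of 3 electron donors called in either. With a fold under 1.5, Cyb5a (0.46, adjusted p = 3.95e-05) and Cyb5r3 (0.31, adjusted p = 0.0368) passed the adjusted p in WT mice. Cyb5a did so in Pxr-/- mice too (0.29, adjusted p = 0.00784). Of 8 alcohol and aldehyde dehydrogenases that can oxidise the omega-alcohol, Adh4 fell (-0.75) and Aldh1a1 rose (0.71) in WT mice, and 0 were called in Pxr-/- mice. Of 5 genes for activation and peroxisomal import of fatty acids, 0 were called in any comparison, though 3 had an adjusted p no higher than 0.05 with a fold under 1.5 in WT mice. Of 14 genes of peroxisomal beta-oxidation, which shortens dicarboxylic acids, 3 were called lower in WT mice (the thiolase Acaa1b -0.84, the carnitine transferase Crot -0.80 and the isomerase Eci2 -0.60) and 0 higher, while another 7 had an adjusted p no higher than 0.05 with a fold under 1.5. Over all genes, 2.39% were called lower in WT mice. Estimates below 0 were found for 13 of these 14 in WT mice and 11 in Pxr-/- mice. Their medians were -0.49 and -0.12, beside -0.02 and -0.01 for all genes. None of the 14 was called in Pxr-/- mice, where Scp2, the peroxisomal thiolase and sterol carrier, passed the adjusted p with a fold under 1.5 (-0.26, adjusted p = 0.0162) and 2 had an unadjusted p below 0.05. For all genes, the shares that passed the adjusted p with a fold under 1.5, or had an unadjusted p below 0.05, were not counted.

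Of 10 other Cyp4 genes, 6 (Cyp4a29, Cyp4a30b, Cyp4f37, Cyp4f39, Cyp4f40 and Cyp4x1) had no retained probe. Among the remaining 4, Cyp4b1 fell in WT mice (-0.77, adjusted p = 0.00016), with -0.07 in Pxr-/- mice (adjusted p = 0.785) and a called difference of -0.70 (adjusted p = 0.0418). Cyp4f18, known as the leukotriene B4 hydroxylase of neutrophils, rose in WT mice (0.73, adjusted p = 0.00029), with 0.32 in Pxr-/- mice (adjusted p = 0.118). Cyp4f16 and Cyp4f17 were not called. Neutrophil markers rose too, S100a8 by 2.21 and 2.19 and S100a9 by 2.03 and 2.00 in WT and Pxr-/- mice. The difference between the genotypes was 0.02 for S100a8 and 0.03 for S100a9, against 0.41 for Cyp4f18, none of them called. The lymphocyte markers Cd3e, Ms4a1 and Nkg7 were not called in either genotype (0.13, 0.29 and -0.24 in WT mice). The 5 measured lymphocyte and neutrophil markers had a summed signal of 1599 to 5515 in WT CONT, 5972 to 14673 in WT PCN, 1844 to 5754 in Pxr-/- CONT and 6048 to 17534 in Pxr-/- PCN, and their part in the Cyp4f18 value was not tested.

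Hepatocyte markers were measured beside the decreases of Cyp4a10, Cyp4a14, Cyp4a31 and Cyp4v3. Of 6 (Alb, Apoa1, Ttr, Fgb, Serpina1a and Apoc3), 0 were called in WT mice by limma (1 at an unadjusted p below 0.05), their changes ran from -0.21 to 0.08, and their summed signal was 1410173 to 1702455 in WT CONT and 1446555 to 1584211 in WT PCN. Apoa1 rose by 0.62 in Pxr-/- mice. None of the 6 Kupffer cell, 6 endothelial cell, 4 blood and 3 pancreas markers measured was called in either genotype. Among 6 stellate cell and 5 cholangiocyte markers, Col1a1 rose by 3.17 in WT and 1.96 in Pxr-/- mice and Sox9 by 0.76 in WT mice.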

How the data were processed

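The deposited scanner files, per the file headers, are Agilent Feature Extraction output and give each spot's linear intensity, not normalized between arrays by the authors. The authors also deposited normalized log2 values, made from median signals by filtering, correction for the washing batch and CrossNorm, which normalizes stacked groups of arrays. These were used as an alternative. The submitters' processing notes name Agilent Feature Extraction 10.10.1.1 and limma.

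Here, from 62976 spots per array, control spots were left out and spots flagged as outliers (2225 in the 23 arrays) treated as missing. Median signals were averaged per probe on the log2 scale (56605 probes), and probes well above background on more than a share of 0.5 of the arrays of at least 1 group were kept (32087). These were quantile normalized. All 23 arrays entered 1 limma fit (limma 3.58.1, R 4.3.3, data.table version 1.17.8; lmFit, contrasts, eBayes) with group and additive washing batch, 18 residual degrees of freedom, adjusted by Benjamini-Hochberg over all probes. The fit was tested on simulated data. Groups, replicate numbers and the washing batches came from the labels and the 8 slides from the files. Nothing states more than that arrays are separate mice, and the number of arrays limits the precision. Fitted changes can differ slightly from differences of means because of the batch term.

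All members were named with every probe. From the lists of related genes up to 3 called genes with the largest change per comparison were named, with Ppara, Cyp3a11 and Nr1i2 always, and, for 4 members the 3 genes of highest r. Members and lists were chosen with earlier results of these data known. Alternatives covered signal, background correction, scaling, filter, batch, slide, replicate block, probe, groups fitted and each array left out. Leaving out WT CONT replicate 2 and WT PCN replicate 4 together was added after the data were seen. Probe sequences and coordinates (mm9) are those of the array files; accessions were matched to RefSeq gene names (GRCm38.p6). Transcripts, proteins and a genome were not used here.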

Additional observations from a re-analysis of the deposited data

Results flagged for a closer look

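Of 52 sets of samples (13 probes in 4 groups), 6 held a mouse whose gap to its nearest neighbour took up more of the group's range than Dixon's limit allows, and chance gives about 1 in 20. WT CONT replicate 2 was the lowest of its group for Cyp4a12a (11.466, next 12.627) and Cyp4a12b (12.061, next 13.185) and the highest for Cyp4a14 (8.457, next 6.353). WT PCN replicate 4 was the lowest for Cyp4a12a (10.514, next 12.496) and for the main Cyp4f13 probe (10.808, next 11.358). WT CONT replicate 5 was the lowest for the dimmer Cyp4a31 probe (6.893, next 7.319). The PCN effects of the genotypes differed for Cyp4v3 (-0.771, WT minus Pxr-/-), and outside the members for Cyp4b1 (-0.702) and Ppara (-0.866), by the limma interaction test.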

How the results depend on the processing

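In all 15 alternatives and with each of 23 arrays left out, Cyp4a10 kept its direction and its call in WT mice (-2.33 to -1.29). Cyp4a31 lost it within washing batch 1, Cyp4a14 in 6 alternatives and 5 omissions, and Cyp4v3 in 3 and 1. The Cyp4v3 difference between the genotypes lost its call in 6 alternatives and 3 omissions. The cause was not tested. Stacked quantile normalization and the deposited values moved the median of all probes to 0.11 in WT mice and to -0.11 between the genotypes in CONT. With replicate numbers as a block, the counts of called members stayed at 4 lower in WT mice and 1 for the difference, with -1.73 for Cyp4a10, and no call changed. Same-numbered mice of different groups had correlations of -0.19 to 0.60 (median -0.01, 12 of 33 above 0.1), so the numbers were not taken as pairs. A slide block (consensus correlation 0.01) changed no call. The Cyp4a14 change in WT mice, at low signal, was -2.09 with the background-subtracted processed signal, against -1.06 with the median signal under the same 75th percentile scaling, and -0.72 with normexp background correction.

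Members called lower in WT mice were 2 with stacked quantile, deposited values and within washing batch 1 or 2, and 3 to 4 with 1 array left out. With the second probe 1 member was called lower in Pxr-/- mice, and 0 to 2 with 1 array left out. For the difference 0 were called with the processed signal, 75th percentile scaling, stacked quantile, deposited values and within either batch, and 0 to 1 with 1 array left out. The median change of Cyp4a in WT mice was -1.72 with the processed signal, -0.72 with normexp and -1.56 within batch 2, and -1.23 to -0.63 with 1 array left out, the last without WT CONT replicate 2. That of Cyp4f and Cyp4v was 0.24 with stacked quantile, 0.25 with deposited values and -0.16 with the second probe, which gave -0.041 in Pxr-/- mice. For the difference the Cyp4a median was -0.46 within batch 1, -1.16 within batch 2, -0.48 with the second probe and -0.97 to -0.34 with 1 array left out, and that of Cyp4f and Cyp4v 0.065 with stacked quantile and 0.073 with deposited values. Between the genotypes in CONT the Cyp4a median was -0.62 with normexp, -0.52 within batch 1, -0.61 within batch 2, -0.52 without WT CONT replicate 2 and WT PCN replicate 4, and -1.05 to -0.51 with 1 array left out. That of Cyp4f and Cyp4v was -0.094 with stacked quantile and -0.093 with deposited values.

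Signs turned for uncalled members. In WT mice Cyp4a12a was 0.27 and Cyp4a12b 0.25 within batch 2, Cyp4a12b 0.004 without both of those mice, Cyp4f13 -0.003 with no batch term, -0.001 with only the groups compared, -0.17 within batch 1 and -0.40 with the second probe, and Cyp4f15 -0.006 within batch 2. In Pxr-/- mice Cyp4f13 was -0.21 with the second probe. For the difference Cyp4a12a was -0.33 and Cyp4a12b -0.19 within batch 1, Cyp4f13 0.013 with stacked quantile, 0.018 with deposited values and 0.17 within batch 2, and Cyp4f15 0.083 with the processed signal, 0.048 with 75th percentile scaling, 0.12 with stacked quantile, 0.13 with deposited values, 0.23 within batch 1 and 0.033 without both mice. Between the genotypes in CONT Cyp4a12a was 0.17, Cyp4a12b 0.087 and Cyp4v3 0.045 within batch 2, Cyp4f13 -0.055 with stacked quantile, -0.055 with deposited values and -0.14 within batch 1, Cyp4f15 0.042 with the processed signal, 0.009 with 75th percentile scaling, 0.24 within batch 1 and 0.039 without both mice, and Cyp4v3 0.003 with 75th percentile scaling. With 1 array left out, ranges in WT mice were -0.53 to 0.17 for Cyp4a12a, -0.46 to 0.23 for Cyp4a12b and -0.039 to 0.12 for Cyp4f13. For the difference they were -0.14 to 0.016 for Cyp4f13 and -0.12 to 0.037 for Cyp4f15, and between the genotypes -0.35 to 0.024 for Cyp4a12a, -0.35 to 0.003 for Cyp4a12b, -0.11 to 0.046 for Cyp4f15 and -0.10 to 0.046 for Cyp4v3.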
